A study of Mus musculus with 8 samples.

Results

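Colony-stimulating factors and their receptors were followed in 8 genes on microarrays of lung neutrophils. The set comprised 3 secreted factors (Csf1, Csf2 and Csf3) and 5 receptor subunits (Csf3r, Csf2ra, Csf2rb, Csf2rb2 and Il3ra). Members were found by symbol. The deposited table held 24625 rows with 19836 distinct symbols, and each of the 8 members had exactly 1 row. The mice were wild type (WT) with no added allele, 6 to 12 weeks old per the labels, with a narrower range in the study's methods. Per those methods they came from colonies founded with adult female C57BL/6J mice and were matched for age and sex, and which sex was studied is not stated outright. A suspension of the pneumonia bacterium Streptococcus pneumoniae (SP) in phosphate-buffered saline (PBS), or PBS alone, was instilled by the tracheal route in the left lung, at 2.3 µl for each g of mouse. At 24 h, lungs were digested and cells carrying Ly6G, a surface protein of mouse neutrophils, were pulled out with magnetic beads. Each group held 4 preparations, each on its own Affymetrix Mouse Gene 1.1 ST array. Cells that were not neutrophils could remain in such a preparation, and the study's methods describe purity for the pneumonia samples alone. For those samples they report high purity by stained cell preparations. The few other cells seen there mostly looked like alveolar macrophages, and rarely like eosinophils. The study describes each sample as one from a mouse given PBS or SP, and the labels do not name the mice.

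Colony-stimulating factors are secreted proteins that drive the production, survival and activation of myeloid cells. Csf1, also called M-CSF, supports monocytes and macrophages. Csf2, or GM-CSF, acts on neutrophils, macrophages and dendritic cells, and in the lung it is needed for mature alveolar macrophages that clear surfactant. Csf3, or G-CSF, is the main factor for neutrophil production and release from bone marrow. Csf3r is the receptor of Csf3 and pairs with itself. The receptor of Csf2 joins Csf2ra, an alpha chain that binds the factor, to Csf2rb, the beta chain shared with the interleukin-3 and interleukin-5 receptors. Il3ra is the alpha chain for interleukin-3. Mice carry a further beta chain, Csf2rb2, that serves interleukin-3 alone. Both beta chains pass their signal to the kinase Jak2 and to Stat5. The receptor of Csf1 was not analysed here.

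Csf2 lies next to Il3 on chromosome 11, and Csf2rb2 lies next to Csf2rb on chromosome 15, among the protein-coding genes of the RefSeq annotation of GRCm38.p6. Entries for 6 of the 8 members were found in a table of RefSeq promoters of the same build, and there was none for Csf3 and Csf2rb. The 250 bases before the annotated start were searched on both strands for 7 motifs. The motifs were the NF-kB consensus, the conserved cytokine element GAGATTCC, the AP-1 site TGANTCA, the STAT site TTCNNNGAA, the C/EBP site TTGCNNAA, a pair of interferon-response elements GAAANNGAA and the TATA box TATAAA. The sequences that follow are those of the 4 members with an entry that were called at 2-fold in pneumonia, Csf1, Csf2, Csf2rb2 and Il3ra, and capitals mark the matches. They read 5′ to 3′ along the strand of each gene. The Csf1 sequence is chr3:107760470-107760719 on the minus strand, and its capitals match the NF-kB consensus read on the opposite strand, 154 to 145 bases before the start. The Csf2 sequence is chr11:54249900-54250149 on the minus strand. Its first capitals, 199 to 191 bases before the start, are the interferon-response pair, and its second, 145 to 138 bases before the start, are a C/EBP site. The Csf2rb2 sequence is chr15:78305722-78305971 on the minus strand, with a STAT site 15 to 7 bases before the start. For Il3ra, whose window lies inside the annotated gene, the 28 bases around a C/EBP site 134 to 127 bases before the start are given, chr14:14346351-14346378 on the plus strand.
Csf1: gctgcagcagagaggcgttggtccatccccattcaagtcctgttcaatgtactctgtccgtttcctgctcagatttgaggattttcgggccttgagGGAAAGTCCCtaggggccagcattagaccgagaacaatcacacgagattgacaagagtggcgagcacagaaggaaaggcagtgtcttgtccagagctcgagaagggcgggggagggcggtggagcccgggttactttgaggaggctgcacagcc
Csf2: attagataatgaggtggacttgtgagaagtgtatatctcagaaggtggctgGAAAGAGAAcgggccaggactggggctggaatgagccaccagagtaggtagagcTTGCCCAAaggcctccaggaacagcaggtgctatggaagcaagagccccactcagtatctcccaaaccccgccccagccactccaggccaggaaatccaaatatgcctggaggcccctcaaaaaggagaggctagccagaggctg
Csf2rb2: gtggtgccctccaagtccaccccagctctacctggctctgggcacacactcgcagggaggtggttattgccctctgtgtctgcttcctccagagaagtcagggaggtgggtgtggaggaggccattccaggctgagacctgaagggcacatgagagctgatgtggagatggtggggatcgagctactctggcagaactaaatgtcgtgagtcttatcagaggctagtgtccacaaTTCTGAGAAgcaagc
Il3ra: tctcaggaagTTGCTCAAtctcgggacc

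For comparison, a member that was not called in pneumonia held the same kind of match. The 30 bases around it, chr4:126024520-126024549 on the plus strand, are given with the NF-kB consensus in capitals, again read on the opposite strand, 129 to 120 bases before the start of Csf3r.
Csf3r: ccctgaggcaGGAAGGTCCCtagctcacca

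The NF-kB consensus was thus found at 2 of the 6 members with an entry, Csf1 and Csf3r, and at 7.25% of all 32851 promoters. A C/EBP site was found at 2 of the 6, Csf2 and Il3ra, and at 9.56% of all promoters. The STAT site was found at Csf2rb2 alone and at 7.02% of all promoters, and the interferon-response pair at Csf2 alone and at 7.13%. The cytokine element, held by 0.755% of all promoters, the AP-1 site (6.75%) and the TATA box (12.4%) were found at 0 of the 6. No match overlapped another. These are counts of letters in a short window before the annotated start used here. They do not show that a gene lacks an element elsewhere, and say nothing of whether a factor was bound.

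The preparations from infected lungs had more messenger RNA of all 3 factors and of 3 of the 5 receptor subunits. Values are log2 intensities, on which a difference of 1 is a 2-fold difference, and rows were compared by limma with Benjamini-Hochberg adjustment over all 24625 rows. At an adjusted p of 0.05, 6 of the 8 members were called and all 6 were higher in SP, against 21.5% of all rows called higher and 22.6% called lower. With a difference of at least 2-fold as well, 5 of 8 were called, all of them higher, against 6.37% of all rows higher and 11.3% lower. Those 5 were Csf1, Csf2, Csf3, Csf2rb2 and Il3ra. In 6 of the 8, every SP value was above every PBS value, which held for 27.2% of all rows. The median difference of the 8 members was 1.35 on the log2 scale, and that of all rows was 0.10. In these bulk preparations fewer cells of a type and less RNA per cell cannot be told apart.

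**Figure D1:**
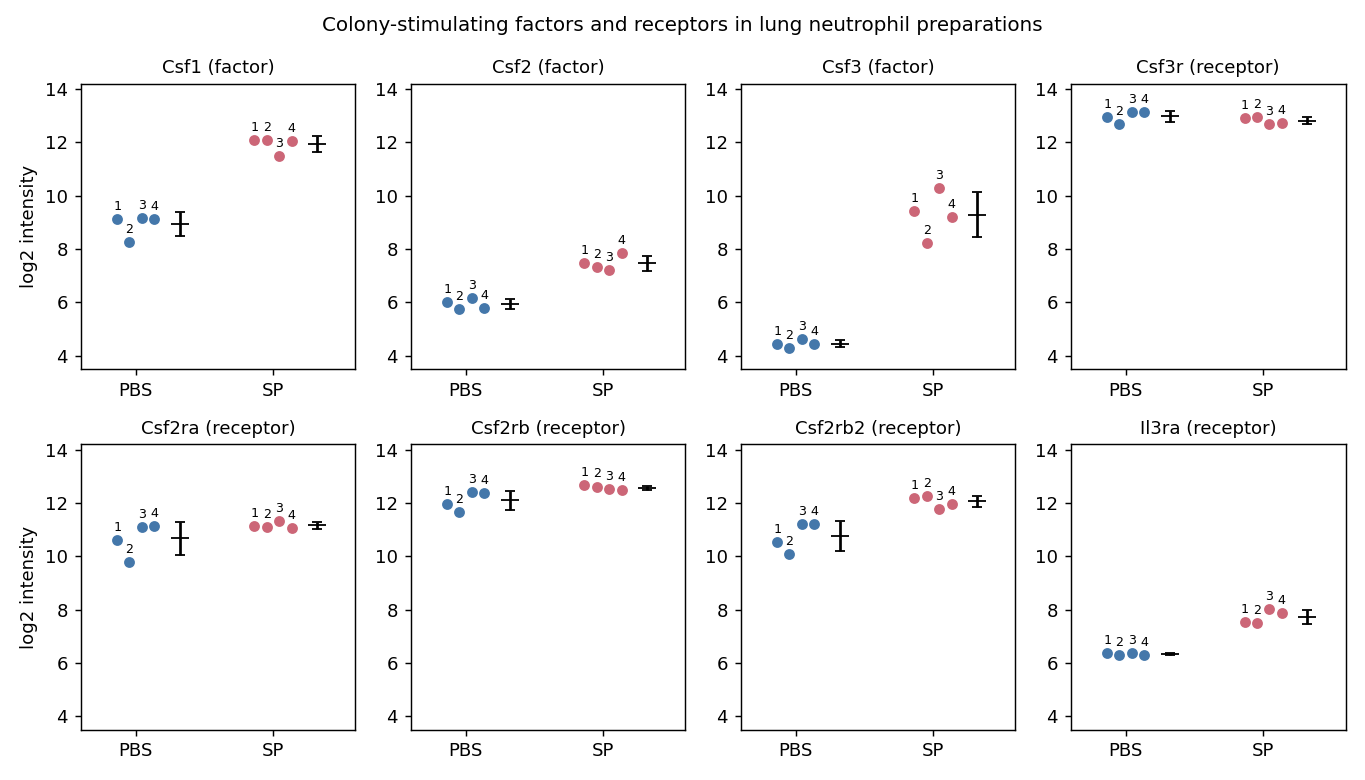
Log2 intensity (vertical axis) of each of the 8 genes in the 4 PBS arrays (blue) and the 4 SP arrays (red), with replicate numbers above the points and the mean with 1 SD in black beside them. Csf1, Csf2, Csf3, Csf2rb, Csf2rb2 and Il3ra show no overlap between the groups, while Csf3r and Csf2ra overlap; Csf3r has PBS and SP means of 12.97 and 12.81.

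Csf3 had the largest difference of the 8. Its log2 values were 4.43, 4.30, 4.63 and 4.43 in PBS replicates 1 to 4 and 9.42, 8.21, 10.27 and 9.20 in SP replicates 1 to 4. The groups were far apart, and SP replicate 3 was the highest and SP replicate 2 the lowest of its group. Means were 4.45 ± 0.13 in PBS and 9.28 ± 0.85 in SP (SD, n = 4 each). The difference was 4.83 (95% interval 3.99 to 5.67), or 28.4-fold, with an adjusted p of 3.45e-05 by limma. The PBS values lay at the level of 3 genes of the Y chromosome, Ddx3y, Kdm5d and Uty, which read 4.33 to 4.90 over the 8 arrays and serve here as a measure of background. Their use as background takes the mice to be female, which the sources do not state outright. Of all rows, 30.7% had a mean at or below 4.90. A level below background cannot be read from the array, which limits the fold. The SP mean was 20.7-fold above the highest of those background values, an estimate that does not allow for the spread of the SP arrays.

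Csf1 was well above background in both groups and rose too. Its PBS values were 9.14, 8.25, 9.17 and 9.14, and its SP values 12.09, 12.08, 11.48 and 12.06. In each group 1 array stood below the others, which lay within a narrow band, namely PBS replicate 2 and SP replicate 3. The means of 8.92 ± 0.45 and 11.93 ± 0.30 (SD, n = 4 each) differed by 3.0 (95% interval 2.46 to 3.55), or 8.01-fold, with an adjusted p of 4.14e-05 by limma.

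Csf2 moved by less than the other factors. PBS values were 6.02, 5.74, 6.15 and 5.80, and SP values were 7.46, 7.32, 7.20 and 7.85. All 4 SP arrays were above all 4 PBS arrays, and SP replicate 4 was the highest. The difference between the means of 5.93 ± 0.19 and 7.46 ± 0.28 (SD, n = 4 each) was 1.53 (95% interval 1.18 to 1.89), or 2.89-fold, with an adjusted p of 0.000138 by limma. Il3, the neighbour of Csf2 and the factor bound by Il3ra, read 4.32 to 4.61 in PBS and 4.78 to 5.13 in SP, close to the background level in both groups. Its difference of 0.42 was called (adjusted p = 0.0158 by limma), and the call was lost after another quantile normalization (0.27, adjusted p = 0.0862).

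Among the receptor subunits, the alpha chain for interleukin-3 had the clearest separation. Il3ra read 6.37, 6.31, 6.38 and 6.29 in PBS and 7.55, 7.50, 8.02 and 7.86 in SP. PBS values were almost level, and SP replicates 3 and 4 were the higher pair of their group. From 6.34 ± 0.05 to 7.73 ± 0.25 (SD, n = 4 each), the difference was 1.39 (95% interval 1.11 to 1.67), or 2.63-fold, with an adjusted p of 6.81e-05 by limma.

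Csf2rb2, the beta chain used for interleukin-3 alone, rose by a similar amount. It read 10.52, 10.07, 11.20 and 11.23 in PBS and 12.20, 12.26, 11.78 and 11.98 in SP. PBS replicates 1 and 2 lay below PBS replicates 3 and 4, and every SP value was above them all. Means of 10.75 ± 0.56 and 12.06 ± 0.22 (SD, n = 4 each) gave a difference of 1.30 (95% interval 0.70 to 1.91), or 2.47-fold, with an adjusted p of 0.00464 by limma.

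The shared beta chain Csf2rb differed by less. PBS values were 11.97, 11.66, 12.40 and 12.38, and SP values 12.66, 12.62, 12.52 and 12.50. The SP values kept within a narrow range just above the highest PBS values. The difference from 12.10 ± 0.36 to 12.57 ± 0.08 (SD, n = 4 each) was 0.47 (95% interval 0.09 to 0.85), or 1.39-fold, and its adjusted p by limma was 0.0474. The gene lay close to the threshold, and its call was lost when any of PBS replicates 1 and 2 or SP replicates 1 to 4 was left out, with differences of 0.32 to 0.57 over the 8 arrays left out in turn. Csf2rb and Csf2rb2 are near copies of each other, so a probe may read both, and the split of the signal between them is uncertain.

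Csf2ra, the chain that binds Csf2, was not called. It read 10.63, 9.79, 11.11 and 11.15 in PBS and 11.13, 11.09, 11.34 and 11.08 in SP. PBS replicate 2 was far below the others, while PBS replicates 3 and 4 were level with the SP arrays. The means were 10.67 ± 0.63 and 11.16 ± 0.12 (SD, n = 4 each), and the difference of 0.49 had a 95% interval of -0.15 to 1.13, which still allows a rise of over 2-fold (adjusted p = 0.171 by limma). The value rested on PBS replicate 2, without which it was 0.20 (adjusted p = 0.294), and it was also 0.20 with array weights (adjusted p = 0.427). A call was reached where arrays were centred on their median (0.77, adjusted p = 0.0371) or on neutrophil markers (0.87, adjusted p = 0.0264).

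Csf3r, the receptor of the factor that rose most, showed no called difference. Its values were 12.94, 12.70, 13.13 and 13.13 in PBS and 12.90, 12.93, 12.67 and 12.73 in SP, and the groups overlapped. The means were 12.97 ± 0.20 and 12.81 ± 0.12 (SD, n = 4 each). The difference was -0.17 (95% interval -0.43 to 0.10, adjusted p = 0.255 by limma), its direction turned to 0.11 with arrays centred on their median and to 0.22 with arrays centred on neutrophil markers, and it was called lower after another quantile normalization (-0.32, adjusted p = 0.0335). Whether the array loses contrast at signals this bright was not tested.

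**Figure D2:**
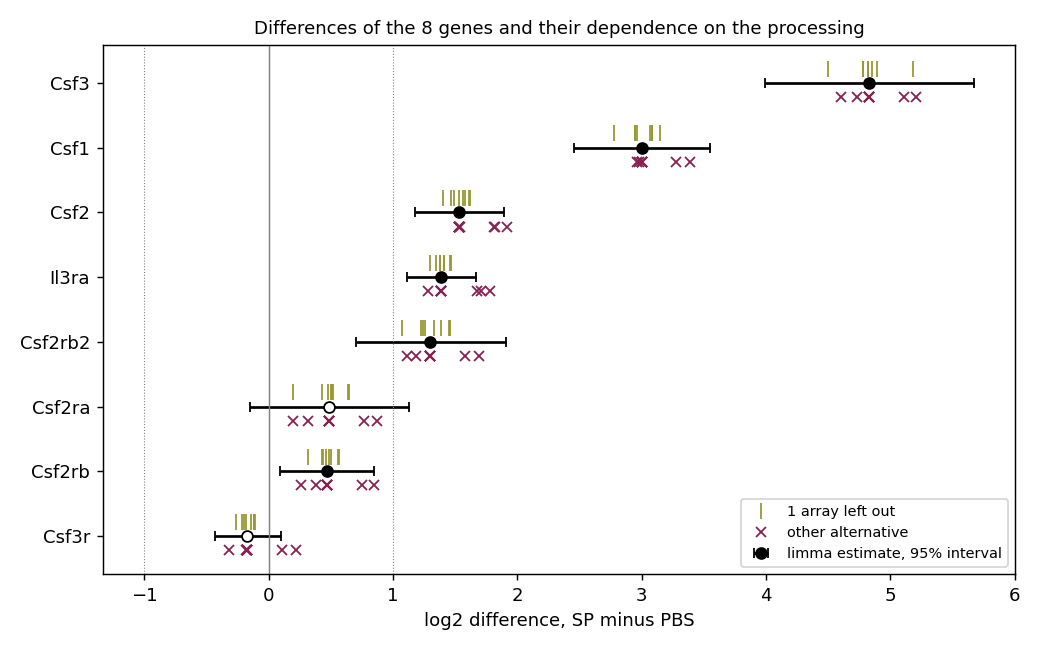
Log2 difference, SP minus PBS (horizontal axis), of each of the 8 genes with its 95% interval from limma; filled circles were called at an adjusted p of 0.05 and open circles were not, and dotted lines mark 2-fold. Green ticks leave out 1 array and purple crosses use another processing. The estimates of Csf3, Csf1, Csf2, Il3ra and Csf2rb2 stay above 1 throughout, although the 95% interval of Csf2rb2 reaches down to 0.70. Csf3r runs from -0.32 to 0.22 and changes direction.

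Whether genes of a pair changed by unequal amounts was tested within arrays, as the difference between the log2 values of both genes. The offset between the probes of different genes has no meaning of its own, so the change of that difference is the measurement. An exact two-sided permutation test over all 70 arrangements of the 8 arrays was used for 3 pairs, and its smallest possible p is 0.0286. Csf3 gained 1.83 on Csf1, or 3.55-fold, with within-array differences of -4.48 ± 0.36 for PBS and -2.65 ± 1.10 for SP (SD, n = 4 each; exact permutation p = 0.0286, adjusted over the 3 pairs 0.0286). Without SP replicate 3 the gain was 1.35, and after another quantile normalization it was 1.77 and did not pass the test (exact permutation p = 0.0571). Because Csf3 was at background in PBS, the size of its gain has the same limit as its fold. Csf2rb2 gained 0.83 on Csf2rb, or 1.78-fold, with within-array differences of -1.59 to -1.15 in PBS and -0.73 to -0.37 in SP (exact permutation p = 0.0286, adjusted 0.0286). Csf3r lost 0.64 against Csf2rb, a change of -0.64 from 0.87 ± 0.16 to 0.23 ± 0.06 (SD, n = 4 each), or 1.56-fold (exact permutation p = 0.0286, adjusted 0.0286). In each of the 3 pairs the within-array differences did not overlap between the groups on the deposited scale, though for Csf3 and Csf1 the gap was narrow, from -3.95 in PBS to -3.87 in SP. These changes do not depend on a constant added to an array, so both centrings leave them as they are, unlike the direction of Csf3r alone. A probe may read both Csf2rb and Csf2rb2, which limits what their unequal change can show. Loss of contrast at bright signals was not tested for either pair with Csf2rb.

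The members shared a pattern among the PBS arrays. PBS replicate 2 was the lowest of its group for 7 of the 8 members, Il3ra being the exception, and for 36.3% of all rows. PBS replicate 3 was the highest for 6 members and for 32.8% of all rows. Both counts include Csf3, whose PBS values lay at background, where the order of arrays has no meaning. Among the SP arrays, SP replicate 3 was the lowest for 4 members (Csf1, Csf2, Csf3r and Csf2rb2) and the highest for 3 others (Csf3, Csf2ra and Il3ra), and took those places in 33.9% and 41.1% of all rows. Without PBS replicate 2, 5 members were called, and the same number passed 2-fold. All members were read on the same 8 arrays, so their positions are not independent of each other.

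Markers of other cell types moved with the groups. For counts of called markers, here and in the next paragraph, the shares of all rows were 21.5% called higher and 22.6% called lower. Neutrophil markers, of which 8 of 9 had a row (Ly6g had none), had array means of 12.95 to 13.14 in PBS and 12.27 to 13.19 in SP, with 0 called higher and 3 called lower. Club cell markers of the airway lining averaged 12.88 to 13.27 in PBS arrays and 10.78 to 11.52 in SP arrays, with 4 of 4 called lower. Ciliated cell markers (5 of 5 lower) averaged 9.64 to 10.53 in PBS and 6.79 to 7.62 in SP. Alveolar type 2 cell markers (6 of 7 lower) averaged 12.01 to 12.57 and 10.26 to 11.67, endothelial markers (5 of 7 lower) 10.49 to 11.40 and 9.03 to 10.12, and B cell markers (6 of 6 lower) 7.71 to 8.63 and 5.83 to 6.97. Preparations of both groups held RNA of lung lining cells. Scgb1a1, the secreted protein of club cells, read 13.63 ± 0.09 in PBS and 13.00 ± 0.04 in SP, and Sftpc, a surfactant protein, 13.33 ± 0.08 and 12.39 ± 0.34 (SD, n = 4 each). Their part in the differences of the members was not tested.

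Cells that can themselves make or respond to these factors were also examined. Alveolar macrophage markers, with 8 of 9 measured, averaged 8.49 to 9.10 in PBS and 7.55 to 7.96 in SP (1 higher, 5 lower). Markers of monocytes and interstitial macrophages averaged 7.79 to 8.61 and 7.50 to 9.11 (3 higher, 0 lower of 8). Those of T cells averaged 5.35 to 5.98 and 5.61 to 6.76 (2 higher, 0 lower of 7), and those of basophils and mast cells, which carry much Il3ra, 5.26 to 5.47 and 5.20 to 5.27 (0 higher, 1 lower of 6), with Mcpt8 and Fcer1a at background. Eosinophil markers averaged 4.72 to 5.77 in PBS, lowest in PBS replicate 2, and 5.74 to 6.17 in SP (2 higher, 0 lower of 4), with Epx at background and Ear6 higher by 2.38 (adjusted p = 0.00102 by limma). Dendritic cell markers averaged 5.50 to 6.11 and 5.14 to 5.27 (1 higher, 3 lower of 6), and NK cell markers 4.99 to 5.30 and 5.17 to 5.79 (1 higher, 0 lower of 6). Fibroblast markers averaged 7.54 to 8.40 and 6.91 to 8.68, with 1 of 6 called lower. Against the shares of all rows, 1 or 2 called genes in lists this short say little about a cell type. Their part in the differences of the members was likewise not tested. Within the PBS group, endothelial markers averaged 11.13, 11.40, 10.62 and 10.49 in replicates 1 to 4, highest in the replicate where Csf2ra, Csf2rb, Csf2rb2 and Csf3r were lowest. Club cell (13.27), ciliated cell (10.53) and alveolar type 2 (12.57) markers were also highest in PBS replicate 2. B cell and fibroblast markers were highest in PBS replicate 1. How these lists bear on the receptors was not tested.

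**Figure D3:**
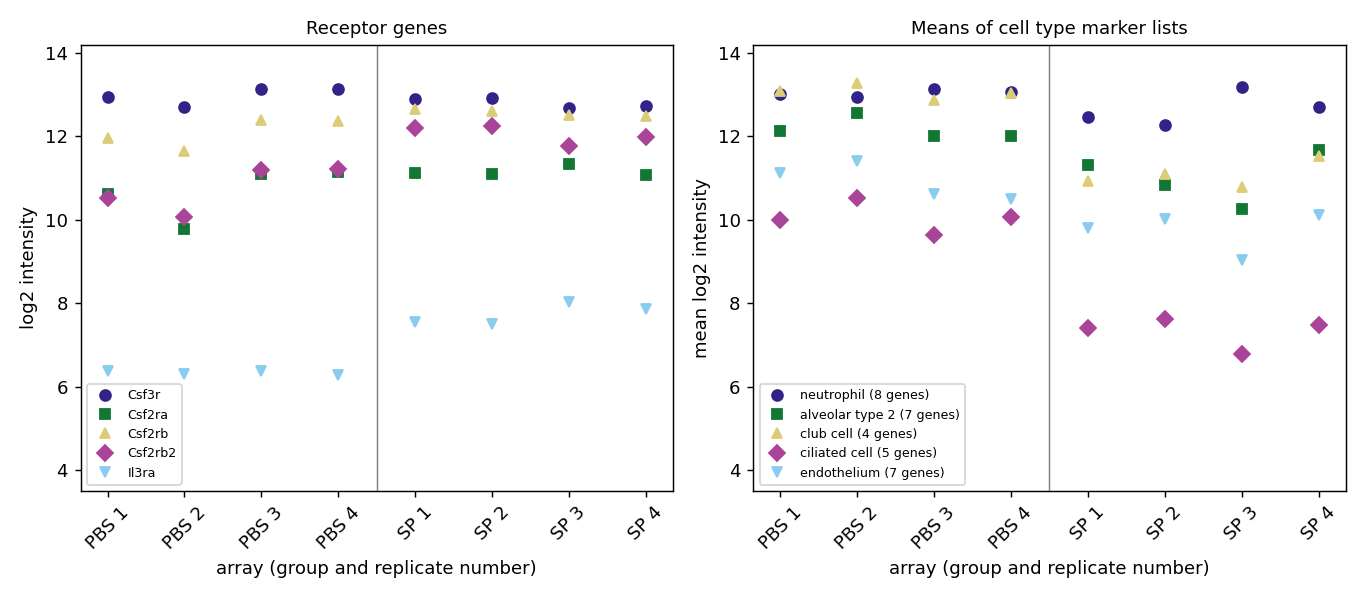
Log2 intensity of the 5 receptor genes (left) and mean log2 intensity of 5 lists of cell type markers (right) in each of the 8 arrays, named by group and replicate number. Csf2ra, Csf2rb and Csf2rb2 dip in PBS replicate 2. Within PBS, that array has the highest endothelial (11.40), club, ciliated and alveolar type 2 means and the lowest neutrophil mean. The club and ciliated cell lists lie lower in all 4 SP arrays than in any PBS array. The order of receptor genes in height has no meaning, since each is read by its own probes.

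The choice of scale mattered for small differences. Centring each array on its median moved the differences of all rows by 0.28 and centring on neutrophil markers by 0.38, so a difference below these amounts, such as that of Csf3r, has no settled direction. Rows called at 2-fold were higher in SP in 36.1% of cases on the deposited scale, 46.1% after another quantile normalization, 55.6% with arrays centred on their median and 62.5% with arrays centred on neutrophil markers. Of the members, Csf1, Csf2, Csf3, Csf2rb2 and Il3ra were called at 2-fold in SP on each of these 4 scales.

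Kinases and adaptors below the receptors came first. Of 19 genes, 9 were higher, 1 lower and 9 not called, with a median of 0.35. For this list and those after it, the shares of all rows were 21.5% called higher and 22.6% called lower. Jak2, the kinase bound to both beta chains, read 10.25, 9.93, 10.52 and 10.49 in PBS and 12.15, 12.19, 11.91 and 11.90 in SP, with no overlap. Its difference was 1.74 (adjusted p = 5.25e-05 by limma). The scaffold protein Gab2 differed by 1.11 (adjusted p = 0.00189 by limma) and Tyk2, a kinase of interferon and interleukin receptors, by 0.94 (adjusted p = 9.78e-05). Stat5a, 1 of the 2 forms of Stat5, read 7.92, 7.56, 8.12 and 8.05 in PBS and 8.73, 8.54, 9.41 and 8.60 in SP, with no overlap. It differed by 0.91 (adjusted p = 0.00878 by limma), while the other form, Stat5b, was not called (-0.38, adjusted p = 0.182). Pik3r1, a regulatory subunit of phosphoinositide 3-kinase, was the only one called lower, at -0.54 (adjusted p = 0.00268), and this call was lost with arrays centred on their median (-0.26, adjusted p = 0.0568).

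Negative regulators gave 5 higher, 1 lower and 4 not called of 10, with a median of 0.65. Socs1, which blocks Jak kinases, read 6.34, 5.51, 6.44 and 6.41 in PBS and 10.88, 11.17, 10.77 and 10.57 in SP. It was far higher in every SP array, by 4.67 (adjusted p = 4.79e-06 by limma). Cish, a feedback inhibitor induced through Stat5, rose from 8.75 ± 0.08 to 11.21 ± 0.23 (SD, n = 4 each), by 2.46 (adjusted p = 4.79e-06 by limma). Socs3, which binds to Csf3r and limits its signal, differed by 1.24 (adjusted p = 0.00358), and the phosphatase Inpp5d by 1.08 (adjusted p = 0.00319). Socs2, which curbs growth hormone signals, differed by -0.96 (adjusted p = 0.0197), a call lost without PBS replicate 1 (adjusted p = 0.0503).

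Genes known to respond to Csf2 or Csf3 in myeloid cells gave 8 higher, 1 lower and 6 not called of the 15 measured out of 17, with a median of 0.49. Bcl2a1b, a survival gene of a family of near-identical copies whose signals cannot be separated, was higher by 3.33 (adjusted p = 5.39e-05). Ier3, an early response gene, was higher by 2.33 (adjusted p = 0.000453) and the survival gene Bcl2l1 by 1.27 (adjusted p = 0.00033). Cebpb, a transcription factor of emergency granulocyte production, was higher by 1.0 (adjusted p = 0.0382 by limma), but was not called without PBS replicate 1, PBS replicate 2 or any SP array (0.71 and adjusted p = 0.0602 without PBS replicate 2). Ccnd3, a cell cycle protein, differed by -0.61 (adjusted p = 0.0325) and was not called with arrays centred on their median (-0.33, adjusted p = 0.184) or without PBS replicate 1, 3 or 4 or SP replicate 1, 2 or 4.

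**Figure D4:**
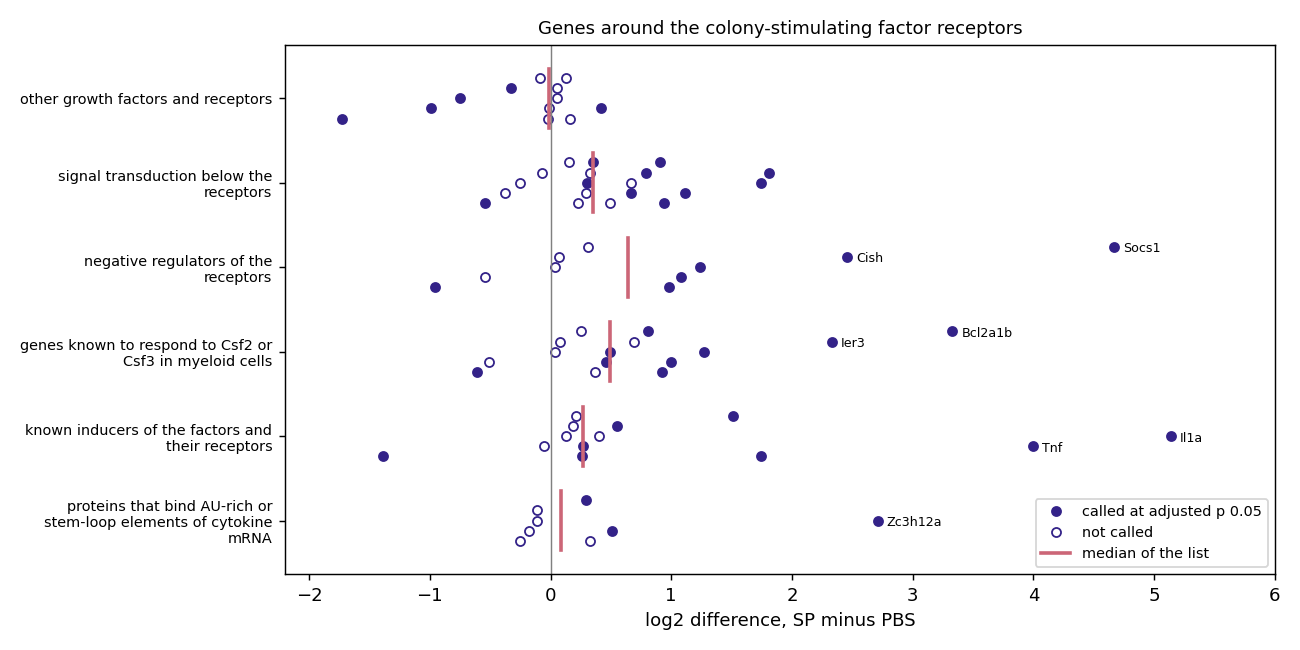
Log2 difference, SP minus PBS (horizontal axis), of the 77 measured genes in the 6 lists around the receptors; each point is 1 gene, filled where called by limma at an adjusted p of 0.05, and red bars are list medians. The list of negative regulators has the highest median (0.65), and Il1a (5.14), Socs1 (4.67), Tnf (4.00) and Bcl2a1b (3.33) lie farthest to the right.

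Known inducers of the factors gave 7 higher, 1 lower and 5 not called of 13, with a median of 0.27. Il1a, an alarm cytokine that drives Csf2 and Csf3 production in many cells, read 8.64, 7.15, 8.73 and 8.63 in PBS and 13.55, 13.29, 13.51 and 13.36 in SP. It differed by 5.14 (adjusted p = 1.62e-05 by limma). Tnf, another such cytokine, differed by 4.00 (adjusted p = 0.000183), and the bacterial sensors Tlr2 and Tlr4 by 1.74 (adjusted p = 0.00231) and 1.51 (adjusted p = 0.000717). Il17rc, a subunit of the interleukin-17 receptor found mainly on epithelial and stromal cells, differed by -1.39 (adjusted p = 0.00503).

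Proteins that bind elements of cytokine messenger RNA gave 3 higher, 0 lower and 5 not called of 8, with a median of 0.09. Of all rows, 21.5% were called higher. Zc3h12a, a nuclease that cuts inflammatory transcripts, read 8.41, 7.91, 9.40 and 9.48 in PBS and 11.56, 11.45, 11.71 and 11.33 in SP, a difference of 2.71 (adjusted p = 0.000389 by limma). Rc3h1, which acts on related elements, differed by 0.51 (adjusted p = 0.00268) and Hnrnpd by 0.29 (adjusted p = 0.033) (PBS replicates 1, 3 and 4 and SP replicates 1 and 2 each ended the call of Hnrnpd when left out).

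Other growth factors and receptors of blood cells formed the last list. Of 12, 1 was higher, 4 were lower and 7 were not called, with a median of -0.01, beside 21.5% of all rows higher and 22.6% lower. The difference between this list and the members was not tested. Kitl, the ligand of the stem cell receptor Kit, differed by -1.73 (adjusted p = 0.0059 by limma), and Il34, a second ligand for the receptor of Csf1, by -0.99 (adjusted p = 0.00631). Il34 read 6.86, 7.43, 6.77 and 6.98 in PBS and 6.12, 5.90, 5.56 and 6.47 in SP, with no overlap. Kitl is made mainly by endothelial and stromal cells, and the endothelial markers were lower in the same arrays, whose part in its difference was not tested. Il5 (0.05, adjusted p = 0.565) and Il5ra (0.13, adjusted p = 0.288), the remaining partners of Csf2rb, were not called on the deposited scale, although both were called higher with arrays centred on their median (0.33, adjusted p = 0.0128, and 0.41, adjusted p = 0.0149), and Il5 turned to -0.09 after another quantile normalization. Of these genes, Il5, Thpo and Epo were among those at background.

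Genes whose values ran most nearly parallel to 4 of the members over the 8 arrays were named by Pearson's r, as a description with no test. For Csf1, Csf3 and Csf2rb2 the 2 groups alone make such values high. For Csf3r, whose groups overlapped, the spread of arrays within groups counts as well. Nearest to Csf1 were Fam20c, Ubash3b and Rbpj (r = 0.997 each), and nearest to Csf3 were Zswim7 (0.997), Cyfip1 (0.997) and Il1f6 (0.996). Il1f6, which encodes interleukin-36 alpha, read 4.56, 4.55, 4.80 and 4.55 in PBS and 8.86, 8.34, 10.24 and 8.74 in SP, with SP replicate 3 highest and SP replicate 2 lowest as for Csf3. Nearest to Csf2rb2 were Ifnar2, Gm6194 and Pik3r5 (r = 0.995 each). Nearest to Csf3r were Rgs2 (0.994), Stat5b (0.986) and Prr5l (0.983), none of which was called. Stat5b, a transcription factor below these receptors, read 9.38, 8.92, 9.94 and 9.80 in PBS and 9.22, 9.39, 8.91 and 8.97 in SP, with overlap.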

How the data were processed

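Neutrophil preparations from lungs of WT mice were profiled on 8 Affymetrix arrays, 4 in each group, and titles gave each sample its group. The authors made the deposited log2 intensities with the RMA procedure, as their methods describe. Background was corrected, signals were adjusted for probe sequence and its GC content, arrays were quantile normalized, and the probes assigned to a gene were combined by median polish. The genome build behind the values is not given in the sources used here. Values are therefore relative within an array, and a change in total RNA per cell cannot be read from them. Array medians lay between 6.06 and 6.20 in PBS and between 5.78 and 5.91 in SP. The number of arrays limits the precision.

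From there, RefSeq identifiers were matched without versions to symbols of GRCm38.p6, which named 19915 of 24625 rows (80.9%). Where a symbol had several rows, the row with the highest mean was taken. Rows were compared with limma 3.58.1 in R 4.3.3 (lmFit and eBayes, two-sided, no covariates), with Benjamini-Hochberg adjustment over all rows and thresholds of an adjusted p of 0.05 and, where stated, 2-fold. The fit was tested on simulated data first. Permutation tests, promoter searches and plots used Python 3.11.15.

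The members, the 6 lists of related genes, the cell type markers and the tests were chosen with earlier results of these data known. The text names all 8 members, up to 4 of the largest rises and 2 of the largest falls called in each list, Il3, Il5, Il5ra and Il34, the 3 most parallel genes of 4 members, and single markers. Stat5a, Epx and markers said to be at background were named after their values were seen. Some listed genes are counted but their results are not reported here.

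Alternatives in the test were one-way ANOVA (the methods' t-test), an intensity trend with a robust prior, array weights and a block for the replicate number. Alternatives in the values were centring of arrays on their median, a further quantile normalization, removal of dim rows, a single row per symbol and leaving out each array in turn. Centring on neutrophil markers was added after the data had been seen.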

Additional observations from a re-analysis of the deposited data

Results flagged for a closer look

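Of 72 groups of 4 arrays tested, 9 held an array whose gap to the nearest other array was too large a part of the range by the 95% critical value of Dixon's ratio. Chance flags about 1 in 20 groups, and the groups share arrays, so the 9 are not independent. PBS replicate 2 accounted for 4 of the 9. For Csf1, PBS replicate 2 read 8.25 where the other PBS arrays read 9.14 to 9.17 (ratio 0.960), and SP replicate 3 read 11.48 where the other SP arrays read 12.06 to 12.09 (ratio 0.953). PBS replicate 2 was also low for Socs1 at 5.51 (others 6.34 to 6.44), for Bcl2a1b at 8.38 (others 9.62 to 9.71) and for Il1a at 7.15 (others 8.63 to 8.73). SP replicate 3 was high for Socs3 at 12.46 (others 12.11 to 12.13), for Cebpb at 11.94 (others 11.50 to 11.54) and for Il5ra at 5.95 (others 5.57 to 5.62). Il17rc read 8.45 in PBS replicate 3, below the other PBS arrays at 8.57. Without the array in question, Csf1 remained called, with differences of 2.78 to 3.15 over the arrays left out in turn.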

How the results depend on the processing

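Csf1, Csf2, Csf3, Csf2rb2 and Il3ra kept their direction and call under all 17 alternatives, with differences of 2.78 to 3.39, 1.40 to 1.92, 4.50 to 5.21, 1.07 to 1.69 and 1.28 to 1.78. Csf2rb was not called by the methods' t-test (0.47, adjusted p = 0.0804), with the replicate block (0.47, adjusted p = 0.0805) or after another quantile normalization (0.26, adjusted p = 0.135), and ran from 0.32 to 0.57 with arrays left out in turn. Centring arrays on their median raised the rows called from 10860 to 18255, listed genes called higher from 33 to 51 and Csf2ra to 0.77 (called), lowered listed genes called lower from 8 to 5 and turned Csf3r to 0.11. Centring on neutrophil markers, added after the data had been seen, gave 0.22 for Csf3r and 0.87 for Csf2ra (adjusted p = 0.0264). Another quantile normalization gave -0.32 for Csf3r (called), -0.09 for Il5 and 1.77 for Csf3 against Csf1 (exact permutation p = 0.0571). Listed genes called lower numbered 5 to 8 with arrays left out, 5 without PBS replicate 1. The cause was not tested. Unequal changes ranged over 0.75 to 0.90 (Csf2rb2 against Csf2rb), 1.35 to 2.23 (Csf3 against Csf1) and -0.69 to -0.58 (Csf3r against Csf2rb) with arrays left out, where 0.0571 is the smallest exact p possible.

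Same-numbered arrays deviated together at correlations of -0.27 to 0.35 only, and 1 array of each group correlated best with its own number. Such weak values cannot tell whether samples of the same number were handled together. With the replicate block 5 members and 9842 rows were called, and the 3 unequal changes were 0.83, 1.83 and -0.64 (exact permutation p = 0.125, the smallest possible). Of 28 other genes followed singly, 20 were the same under every alternative. With no detection flags, values below background have no order.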
